A study of Mus musculus with 20 samples.

Results

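The liver transcript profiles of 4 mice that received an siRNA against Ppara, labelled PPARa siRNA, were compared with those of 4 mice that received a control siRNA labelled GL3. The 8 arrays were chosen by their titles, from 20 arrays in 5 groups. Each mouse was given 40 µg of siRNA in Ringer's solution through the tail vein by hydrodynamic injection, a fast injection of a large volume that drives nucleic acid into hepatocytes, and its liver was taken 48 h later. Vehicle mice had Ringer's solution alone, and the remaining groups had either another Ppara siRNA (PPARa-M) or a control siRNA against secreted alkaline phosphatase (SEAP-M). Each Ppara siRNA is directed at its own fragment of the Ppara mRNA, so each group stands for 1 siRNA sequence. What the suffix M means is not given, and neither are the strain, sex or age of the mice. RNA from each liver was hybridized on a 2-colour array of oligonucleotides against RNA pooled from 4 mice of the vehicle group, and every value below is the log2 ratio of a mouse to that pool, averaged over the probes of a gene, or a difference between such ratios.

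PPARα, the product of Ppara, is a nuclear receptor that binds fatty acids and, together with a retinoid X receptor, switches on the liver's genes for fatty acid uptake, oxidation and ketone body production. An siRNA guides the cell's silencing complex to an mRNA with a matching sequence, and a control siRNA without a target in the mouse shows what the injection and the siRNA load do by themselves. Immediate-early genes, such as Egr1, Fos and Junb, are transcribed within minutes of a stimulus without new protein synthesis, and their mRNAs are short-lived.

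The direction of the ratio is likely but not stated outright, since the array titles name the pool first and the mouse second and the study describes Ppara as decreased in these mice. With the opposite direction every sign below would turn. The lowest correlation between any pair of the 20 arrays was -0.253 over genes. The 8 arrays had medians near 0 and interquartile ranges of the log10 ratio from 0.0569 to 0.079 with PPARa siRNA and from 0.0442 to 0.0594 with GL3. The arrays of a group resembled each other little, with correlations from 0.029 to 0.308 within the PPARa siRNA group and from -0.021 to 0.345 between the groups. With 4 arrays a group, precision is limited by their number. One liver stood apart. In PPARa siRNA replicate D the median log2 ratio of 15 neutrophil markers was 2.03, against -0.13 to 0.20 in the other PPARa siRNA livers and -0.10 to 0.47 with GL3, and the median of 28 acute phase genes was 1.39, against -0.27 to 0.18 and -0.36 to 0.34.

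Ppara, which the siRNA targets, had a ratio under 0 in 3 of 4 treated livers. Its log2 ratio was 0.09, -0.42, -0.29 and -0.35 in replicates A to D with PPARa siRNA and 0.04, 0.20, 0.00 and 0.15 with GL3. Replicates B, C and D lay below all GL3 livers, and replicate A lay among them, so the groups overlapped. The mean was -0.24 ± 0.23 (SD, n = 4 mice) against 0.10 ± 0.09 (SD, n = 4), a log2 difference of -0.34, or 78.8% of the GL3 level, which did not pass the two-sided exact permutation test (p = 0.0857; the smallest p that 4 against 4 allow is 0.0286). All 4 Ppara probes gave a negative difference, from -0.37 to -0.31. On the separate arrays of PPARa-M siRNA and SEAP-M the difference was -0.89, and the gap of 0.55 (SE 0.24) between the siRNAs did not pass in limma (adjusted p = 0.351 over all genes).

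Cpt1a, which lets long-chain fatty acids into mitochondria, had log2 ratios of -0.08, -0.14, -0.27 and -0.14 with PPARa siRNA and of -0.14, 0.10, -0.04 and -0.04 with GL3. The difference was -0.13, and the groups overlapped (two-sided exact permutation test, p = 0.0571). Its probes disagreed, with differences from -0.30 to 0.13. Acadl, a mitochondrial dehydrogenase of long-chain acyl-CoA, had ratios of -0.21, -0.21, -0.04 and -0.23 with PPARa siRNA and of 0.05, -0.00, -0.16 and 0.02 with GL3, a difference of -0.15 (exact permutation test, p = 0.0571) that all 3 probes shared, from -0.18 to -0.12. Vnn1, the pantetheinase that recycles vitamin B5 and a sensitive PPARα target, had ratios of -0.06, -0.55, -0.19 and -0.51 with PPARa siRNA and of 0.14, 0.26, -0.11 and 0.14 with GL3. Its difference of -0.44 (SE 0.11) was the strongest by p among the PPARα targets, the groups overlapped through GL3 replicate C, and it did not pass in limma (adjusted p = 0.393).

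**Figure D1:**
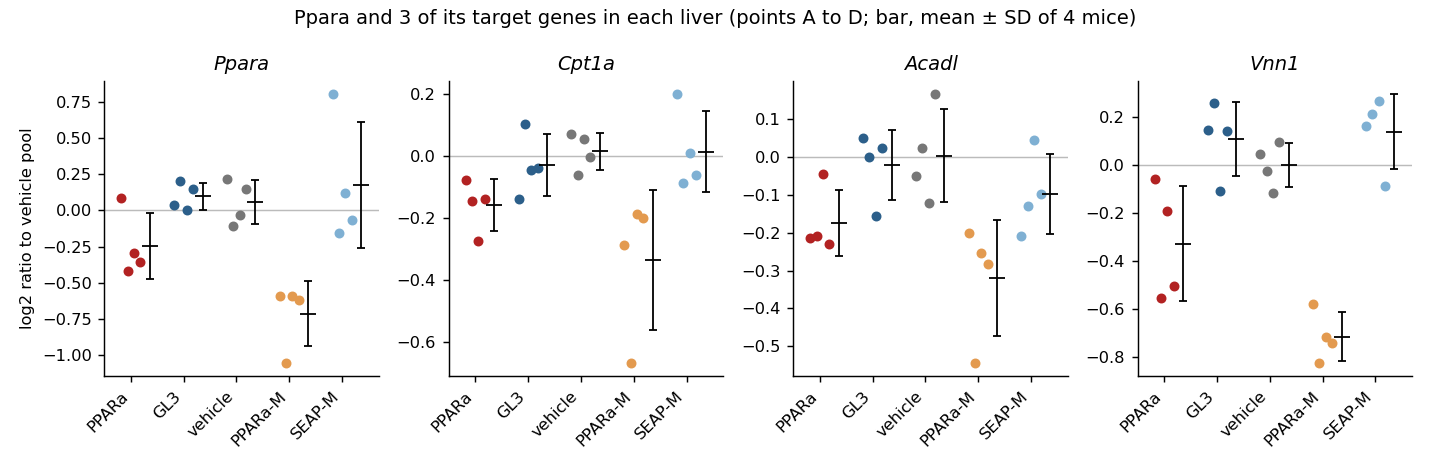
Log2 ratio to the vehicle pool of Ppara, Cpt1a, Acadl and Vnn1 in each of the 20 livers, by group; points are mice A to D from left to right, and the bar is the mean ± SD of 4 mice, with a separate vertical scale for each gene. PPARa siRNA replicate A lies among the GL3 livers for Ppara, and the Vnn1 difference is -0.44 with PPARa siRNA and -0.85 with PPARa-M siRNA.

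Over 15252 genes, 8 genes rose and 0 fell with PPARa siRNA relative to GL3 at a Benjamini-Hochberg adjusted p under 0.05 in limma, which is 0.0525% and 0% of the genes tested. At an unadjusted p under 0.05, 319 of the 15252 genes were higher and 436 lower, together near the share that this threshold marks by chance. Of the 8 genes, 7 are immediate-early genes, and the eighth, Ppp1r3g, encodes a subunit that directs protein phosphatase 1 to glycogen. In all 8, every PPARa siRNA liver lay above every GL3 liver, which adds no support because the same values chose the genes. With an unadjusted p under 0.05 this held for 0.885% of all genes.

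**Figure D2:**
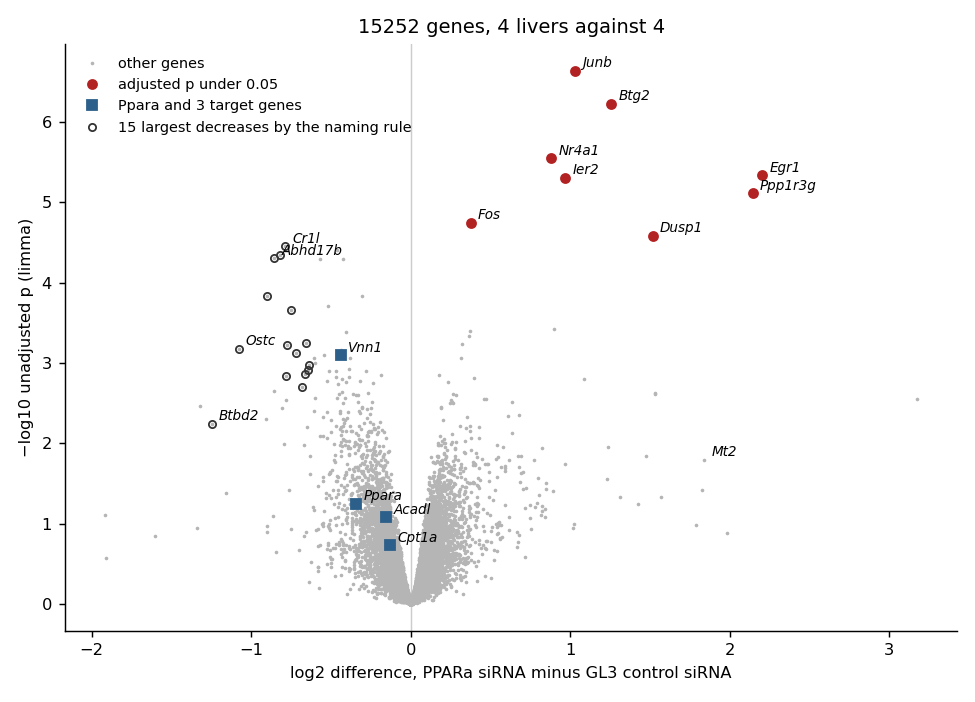
Log2 difference between PPARa siRNA and GL3 control siRNA (horizontal) against −log10 of the unadjusted limma p (vertical) for 15252 genes. The 8 genes past an adjusted p of 0.05 all lie on the right, and the 15 decreases chosen by the naming rule lie at differences from -1.25 to -0.64.

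Junb, a subunit of the AP-1 transcription factor, had log2 ratios of 1.08, 1.22, 1.23 and 0.82 with PPARa siRNA and of 0.06, -0.03, -0.08 and 0.26 with GL3. It rose 2.05-fold, by 1.03 (SE 0.13, adjusted p = 0.0035 in limma), with the lowest treated liver, replicate D, well above the highest control. Btg2, a growth-restraining protein that recruits the CCR4-NOT deadenylase, had ratios of 0.91, 1.26, 1.09 and 0.91 with PPARa siRNA and of -0.46, -0.27, -0.10 and -0.02 with GL3. It rose 2.39-fold (log2 difference 1.26, SE 0.17, adjusted p = 0.00456), and its 4 probes gave differences from 1.03 to 1.42. In both genes the SD lay between 0.15 and 0.20 in either group, well under the difference.

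Egr1, a zinc finger transcription factor, showed the largest rise of the 8. Its log2 ratios were 2.55, 2.66, 2.44 and 1.51 with PPARa siRNA and -0.20, 0.40, -0.32 and 0.46 with GL3, a 4.61-fold rise (log2 difference 2.20, SE 0.34, adjusted p = 0.0151), shared by all 4 probes at 2.03 to 2.27. Nr4a1, an orphan nuclear receptor also called Nur77 that acts on glucose production in liver, had ratios of 0.97, 1.05, 0.51 and 0.91 with PPARa siRNA and of -0.29, 0.09, 0.19 and -0.08 with GL3. It rose 1.84-fold (log2 difference 0.88, SE 0.13, adjusted p = 0.0143), but its 5 probes ranged from 0.16 to 1.62. Ier2, a nuclear protein of the early response, had ratios of 1.12, 1.17, 1.25 and 0.35 with PPARa siRNA and of 0.08, -0.05, -0.11 and 0.09 with GL3. Its rise was 1.96-fold (log2 difference 0.97, SE 0.15, adjusted p = 0.0151), and replicate D again had the lowest value of the treated livers.

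Dusp1, the phosphatase that switches off the stress kinases p38 and JNK, had log2 ratios of 1.44, 1.33, 1.73 and 1.19 with PPARa siRNA and of -0.69, 0.24, -0.26 and 0.33 with GL3. It rose 2.86-fold (log2 difference 1.52, SE 0.27, adjusted p = 0.0495), just inside the threshold. Fos, the partner of Jun proteins in AP-1, had ratios of 0.23, 0.56, 0.36 and 0.23 with PPARa siRNA and of 0.01, -0.00, -0.09 and -0.05 with GL3. Its rise of 1.30-fold (log2 difference 0.37, SE 0.06, adjusted p = 0.0389) is a mean over 4 probes at 0.16 to 0.73. Ppp1r3g, measured with 1 probe, had ratios of 2.46, 2.02, 0.77 and 1.09 with PPARa siRNA and of -0.37, -0.01, -0.91 and -0.95 with GL3, a 4.42-fold rise (log2 difference 2.15, SE 0.35, adjusted p = 0.0195) with the widest scatter among treated livers (SD 0.79). When probes were tested singly, 19 of the 24 probes of these 8 genes passed, and these were all the probes that rose.

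**Figure D3:**
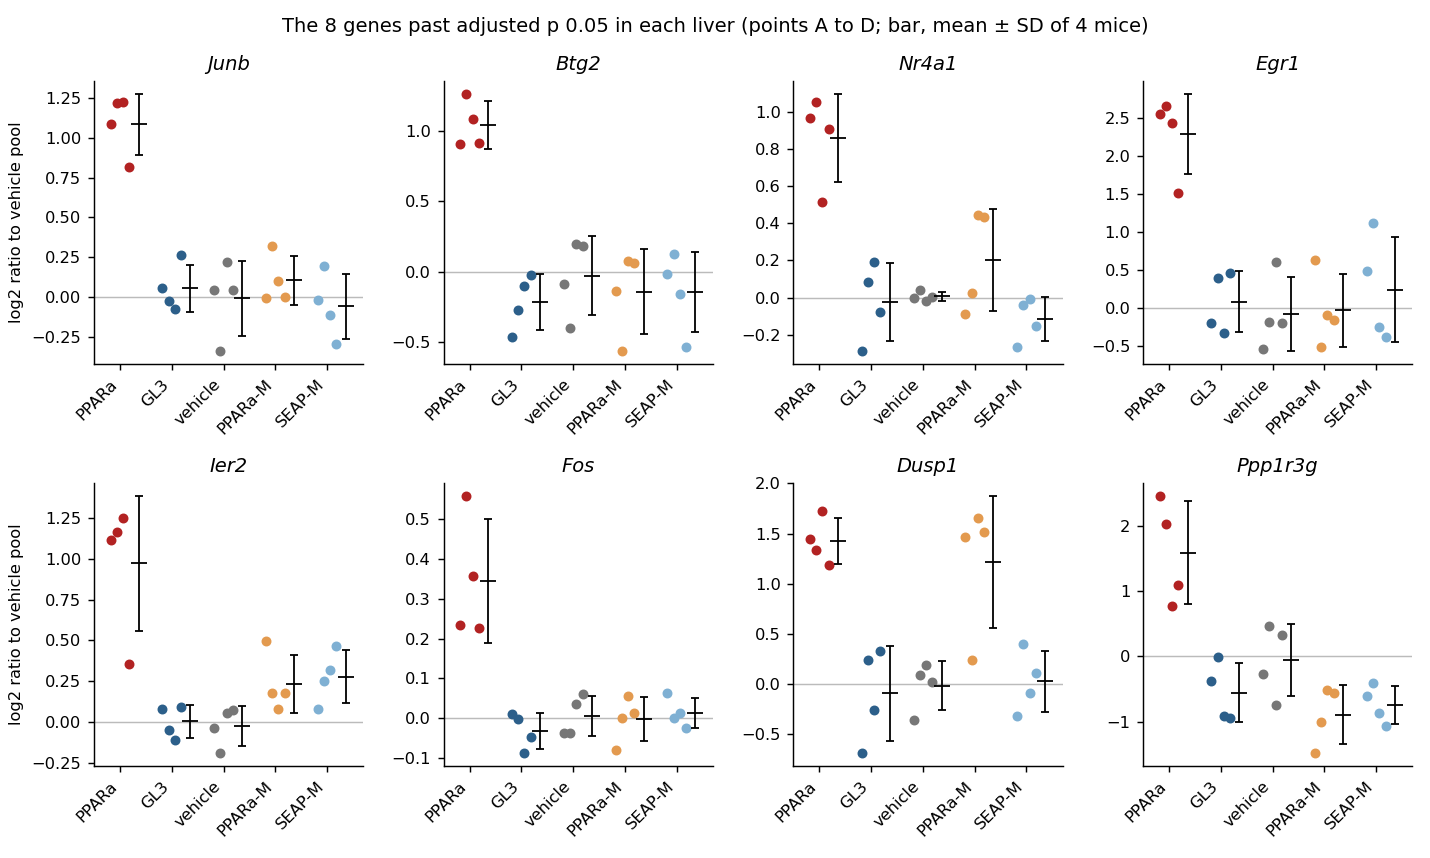
Log2 ratio to the vehicle pool of the 8 genes past an adjusted p of 0.05, in each of the 20 livers by group; points are mice A to D from left to right, the bar is the mean ± SD of 4 mice, and each gene has its own vertical scale. All PPARa siRNA livers lie above all GL3 livers, in the values that chose these genes, and Dusp1 is high in 3 of the 4 PPARa-M livers as well.

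The 8 genes were near the pool in the vehicle group, which follows largely from the pool being made of mice of that group. The median over the 8 of the PPARa siRNA difference from vehicle was 1.08, and that of GL3 from vehicle was -0.03. These comparisons share arrays with the one above. The PPARa-M and SEAP-M arrays give a measurement on other mice. There the median of the 8 was -0.01, with 4 positive and 4 negative, and Dusp1 alone of the 8 rose (log2 difference 1.19, adjusted p = 0.0266). The difference between the siRNAs, each relative to its control, passed for Btg2, Egr1, Ier2, Junb and Ppp1r3g (adjusted p from 0.0207 to 0.0341), and such a call was made for 0.879% of all genes. It did not pass for Fos (adjusted p = 0.0525), Nr4a1 (adjusted p = 0.193) or Dusp1 (0.32, SE 0.38, adjusted p = 0.777). The genes were chosen on 1 side of this difference, and after quantile normalization between arrays it passed for 0 genes.

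The promoters of the induced genes are shown because 6 of the 8 matched the RefSeq promoter table and all 6 held the core of a cAMP response element, the site of CREB and ATF proteins. The search covered the 250 bases before the transcription start on GRCm38.p6, on both strands, for TGACG or its reverse complement CGTCA, which overlap to TGACGTCA in the full element. At least 1 core was found in 17.8% of 32851 promoters, at least 2 cores in 3.9%, and the full element in 1.55%. Of the 6, Btg2 and Dusp1 had the full element, and Btg2, Dusp1, Fos and Nr4a1 had at least 2 cores. A full element counts as 2 cores, and both cores of Btg2 lie in its single full element. Of 19 other immediate-early genes 7 had a core and 0 the full element, and of 11 genes among the largest decreases 3 had a core. The CArG box, the site of serum response factor, was in none of the 6 windows and in 1.47% of all promoters. At so low a share, 6 windows without a match cannot show that such sites are lacking. Egr1 and Ier2 had no matching promoter, and bases further upstream were not searched. Such a match describes the letters in these windows only, and the motifs were chosen with the genes known. The 4 promoters with the most cores or the smallest p are given 5′ to 3′ on the strand of the gene, with the cores in capitals: Btg2 on the minus strand at chr1:134079156-134079405, Dusp1 on the minus strand at chr17:26508473-26508722, Nr4a1 on the plus strand at chr15:101266596-101266845, and Junb on the minus strand at chr8:84978749-84978998.
Btg2: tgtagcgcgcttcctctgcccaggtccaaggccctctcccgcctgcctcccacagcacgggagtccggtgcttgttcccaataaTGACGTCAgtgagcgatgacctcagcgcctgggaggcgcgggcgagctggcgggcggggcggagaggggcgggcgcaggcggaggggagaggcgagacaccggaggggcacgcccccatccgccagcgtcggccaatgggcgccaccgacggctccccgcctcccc
Dusp1: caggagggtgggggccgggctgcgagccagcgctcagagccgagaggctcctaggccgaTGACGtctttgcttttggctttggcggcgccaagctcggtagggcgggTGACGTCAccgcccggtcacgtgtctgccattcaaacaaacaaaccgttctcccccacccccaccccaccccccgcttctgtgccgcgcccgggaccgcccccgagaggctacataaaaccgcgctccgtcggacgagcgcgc
Nr4a1: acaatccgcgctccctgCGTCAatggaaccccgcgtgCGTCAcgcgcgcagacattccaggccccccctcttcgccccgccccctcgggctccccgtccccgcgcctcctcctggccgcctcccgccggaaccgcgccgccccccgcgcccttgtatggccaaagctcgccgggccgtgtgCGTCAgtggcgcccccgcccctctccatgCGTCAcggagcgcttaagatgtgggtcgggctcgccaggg
Junb: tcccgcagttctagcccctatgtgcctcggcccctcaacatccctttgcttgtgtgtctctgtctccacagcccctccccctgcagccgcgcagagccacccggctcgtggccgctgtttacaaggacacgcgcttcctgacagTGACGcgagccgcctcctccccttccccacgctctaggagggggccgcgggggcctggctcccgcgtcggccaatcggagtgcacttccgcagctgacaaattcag

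Among the 30 immediate-early and AP-1 genes listed, all measured, 24 had a positive difference, 7 rose and 0 fell, and the median was 0.31, against 0.01 over all genes. In 10 of the 30 (33.3%) all PPARa siRNA livers lay above all GL3 livers with an unadjusted p under 0.05, against 0.885% of all genes, and the list was drawn up with these results known. The 3 further members are Jun (1.09), Zfp36 (0.90), whose product destabilizes cytokine mRNAs, and Jund (0.58), with adjusted p from 0.301 to 0.818. Not every family member moved with them. Fosb (0.06), Fosl1 (0.03), Egr2 (-0.05), Egr3 (-0.00), Nr4a2 (-0.13) and Nr4a3 (0.06) had differences near 0, and Nfkbia, the inhibitor of NF-κB, had -0.40 (adjusted p = 0.481). Gadd45g had a difference of 1.83, but its GL3 values, from -2.17 to 1.69, spanned its PPARa siRNA values. The array medians of the list were 0.19, 0.55, 0.17 and 0.24 with PPARa siRNA and -0.13, 0.06, -0.08 and 0.14 with GL3, and without PPARa siRNA replicate D the median difference was 0.29. Neutrophil and acute phase markers were high in that liver, and their part in the rise of these genes was not tested.

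No lower gene passed the threshold. In 189 genes (1.24%) all PPARa siRNA livers lay below all GL3 livers with an unadjusted p under 0.05. The nearest to the threshold, with an adjusted p of 0.0550 in limma, included Cr1l, which encodes the complement regulator Crry, Abhd17b, a protein depalmitoylase, and 2810436B12Rik. Cr1l had log2 ratios of -0.84, -0.68, -1.06 and -0.70 with PPARa siRNA and of -0.09, 0.17, 0.04 and -0.26 with GL3, a difference of -0.79 (SE 0.14). Abhd17b had -1.13, -0.59, -1.15 and -0.98 against -0.20, -0.08, 0.07 and -0.20, a difference of -0.86 (SE 0.16). In both, all treated livers lay below all controls, the nearest of them replicate B.

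The 15 largest decreases under the naming rule held genes of unrelated roles. They were Btbd2 (-1.25), Ostc (-1.08), a subunit of the oligosaccharyltransferase, Zfp553 (-0.90), Abhd17b, 2810436B12Rik (-0.82), Cr1l, Rbmxl2 (-0.78), Fyco1 (-0.77), an adapter for the transport of autophagosomes, Zfp950 (-0.75), 9130020K20Rik (-0.72), Pot1b (-0.68), a telomere-binding protein, Ccnt2 (-0.66), a cyclin of the elongation factor P-TEFb, Rpl11 (-0.65), a ribosomal protein, Brd8 (-0.64), a subunit of a histone acetyltransferase complex, and Hsd3b3 (-0.64). Btbd2 rests on GL3 replicate C, at 2.81, against 0.35 to 0.71 in the other GL3 livers and -0.41 to 0.10 with PPARa siRNA. The median of the 15 was -0.79, -0.45, -1.03 and -0.76 in the PPARa siRNA livers and -0.15, 0.22, 0.12 and -0.11 in the GL3 livers. It lay between -0.22 and 0.36 in the vehicle livers. Btbd2 differed from the rest in that its PPARa siRNA mean lay above vehicle, by 0.17.

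With the other siRNA most of these genes had a difference of the opposite sign. The PPARa-M and SEAP-M arrays entered the choice of these genes only through limma's estimate of the spread, which all groups share. On those arrays 14 of the 15 had a positive difference with a median of 0.52, against 7056 positive of 15252 genes and a median of -0.01. Fyco1 (0.72, adjusted p = 0.0456) and Zfp950 (0.63, adjusted p = 0.046) rose there, as did 1.04% of all genes. Over the 189 genes the same arrays gave 127 positive and 62 negative differences with a median of 0.09. The difference between the siRNAs passed for 11 of the 15, although it includes the values that chose them.

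The 15 largest decreases shared a feature of the array. Of their 16 probes, 15 (93.8%) were designed to cDNA sequences of the accession series with the prefix AK, which holds the RIKEN full-length clones, against 44.6% of all 18790 probes with a single symbol. The share was 59.8% of the 261 probes of all 189 genes lower without overlap, and 13.3% of the 30 probes of the 15 largest increases. Of the 15 genes 14 had 1 probe, as did 12848 of all 15252 genes. For Hsd3b3, with a pair of probes, the AK probe gave -1.09 and the other -0.19. When probes were tested singly 15 passed as lower, 8 of them with a symbol. Of these 15 probes 8 were of the AK series. The 44.6% and 93.8% count only probes with a symbol, which 7 of these 15 lack, so the shares cannot be compared. Thap3 had a probe at -0.67 and another at 0.01, Dcaf12 had -0.63 and 0.01, and Hnrnpa3 had -0.67 beside 2 probes at -0.23 and -0.19. The part of the probe sequence in these decreases was not tested.

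**Figure D4:**
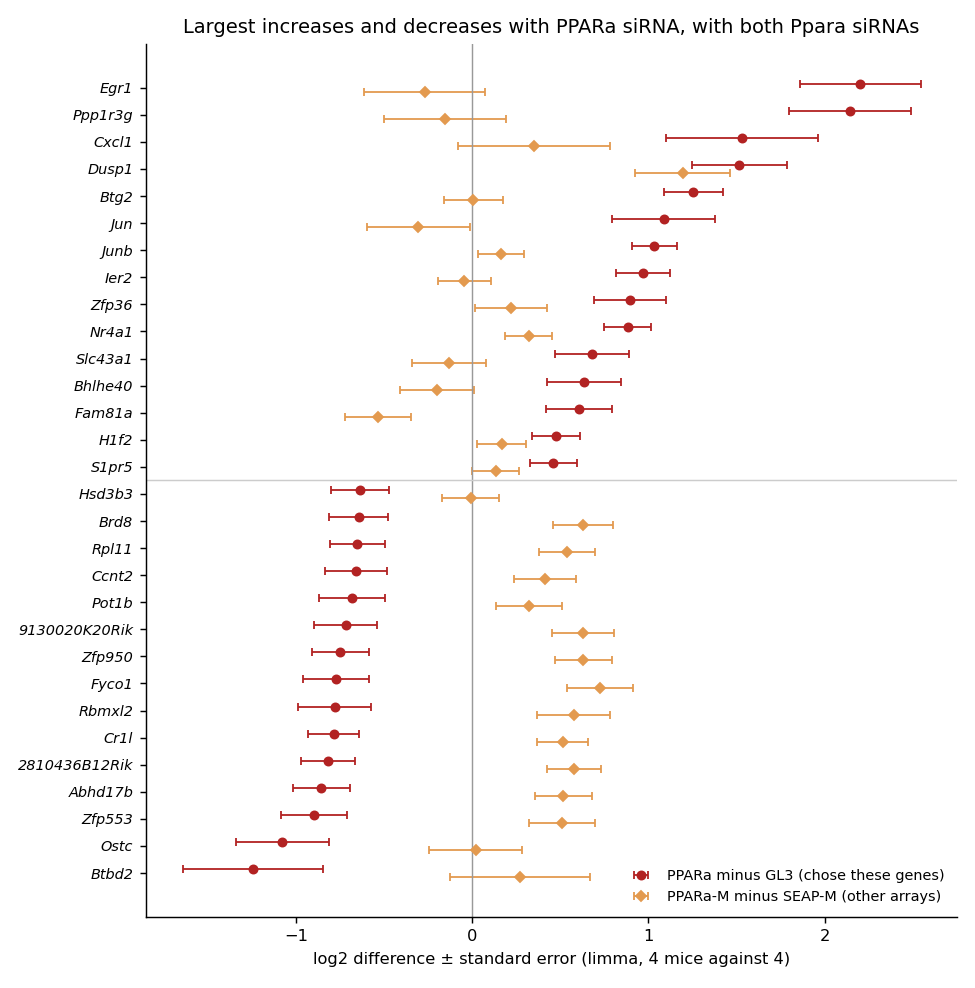
Log2 difference with its standard error for the 15 largest increases and 15 largest decreases under the naming rule, with PPARa siRNA minus GL3 (circles, which chose the genes) and PPARa-M minus SEAP-M (diamonds, other arrays). Of the 15 decreases 14 are positive with PPARa-M siRNA, and of the increases Dusp1 is the gene that rose with both.

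Among 43 measured of 54 listed PPARα target genes 0 rose and 0 fell, 28 differences were negative and 15 positive, and the median was -0.10. In 2 (4.65%), against 1.24% of all genes, the PPARa siRNA livers all lay below the GL3 livers with an unadjusted p under 0.05. They were Aldh3a2 (-0.40), a fatty aldehyde dehydrogenase, whose difference without replicate D was -0.22, and Hsd17b4 (-0.26), the peroxisomal bifunctional enzyme. Hsd17b4 had log2 ratios of -0.24, -0.26, -0.39 and -0.43 with PPARa siRNA and of -0.09, -0.00, -0.11 and -0.08 with GL3, so the groups were apart but close. Acot1, a thioesterase, had -0.47 (adjusted p = 0.958), and -0.30 without replicate D. Angptl4, an inhibitor of lipoprotein lipase, had the lowest difference at -0.52, with a range over the treated livers from -1.95 to -0.13. Other classical targets, such as Cyp4a10 (-0.07), Cyp4a14 (-0.15), Acadm (-0.07), Ehhadh (0.09), Pdk4 (0.13) and Fgf21 (0.25), had no common direction. The array medians were -0.04, -0.09, -0.08 and -0.31 with PPARa siRNA and -0.04, -0.01, -0.11 and 0.02 with GL3, so the list was low mainly in replicate D, the liver with high neutrophil markers, and without it the median was -0.05, with 19 of the 43 positive. With PPARa-M siRNA relative to SEAP-M the median was -0.17.

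Of 18 receptors, partners and coregulators of the PPAR family 0 rose or fell, and the median was 0.03. Nrip1, which encodes the corepressor RIP140, had the smallest p. Its log2 ratios were -0.06, -0.13, -0.47 and -0.14 with PPARa siRNA and -0.06, 0.35, 0.18 and 0.16 with GL3, a difference of -0.36 (adjusted p = 0.817). With PPARa-M siRNA it rose by 0.52 relative to SEAP-M (adjusted p = 0.0364), and the difference between the siRNAs passed (adjusted p = 0.0274). Among peroxisome biogenesis genes Abcd3, a transporter of fatty acids into peroxisomes, had -0.35 (adjusted p = 0.814), and the median of the 17 genes was -0.01.

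Acute phase proteins and neutrophil genes were higher with PPARa siRNA in the mean, but mainly through 1 liver. Of 28 acute phase genes 25 had a positive difference and 0 passed, with a median of 0.38. Without replicate D the median was 0.09, with 19 of the 28 positive. Mt2 had the largest difference of this list at 1.84 (adjusted p = 0.886 in limma), and 1.25 without replicate D. Socs3, the feedback inhibitor of interleukin-6 signalling, had log2 ratios of 0.30, 1.28, 1.07 and 2.19 with PPARa siRNA and of -0.36, 0.47, -0.74 and -0.65 with GL3, a difference of 1.53 (adjusted p = 0.565) that was 1.21 without replicate D. Saa3, a serum amyloid A protein, was at 1.73 in replicate D and between -1.02 and 0.21 in the other treated livers. Of 15 neutrophil markers 14 were positive, with a median of 0.39 that became -0.01 without replicate D. Ngp, S100a8 and Camp, of neutrophil granules and cytosol, were at 4.41, 4.57 and 4.33 in that liver. In whole liver, more cells of a type and more RNA per cell cannot be told apart. Cxcl1, a chemokine for neutrophils, had ratios of 0.59, 0.63, 1.30 and 2.39 with PPARa siRNA and of -0.32, 0.54, -0.53 and -0.90 with GL3, so here all treated livers lay above the controls (difference 1.53, adjusted p = 0.565; 1.14 without replicate D).

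Interferon-stimulated genes include sensors of foreign RNA and antiviral effectors. The 37 measured had a median of -0.11, with 7 positive and 30 negative, and 0 passed; array medians were -0.10 to 0.11 with PPARa siRNA and 0.00 to 0.08 with GL3. On the PPARa-M arrays the median difference was 0.58, with array medians of 0.14, -0.07, 1.03 and 1.07, high in replicates C and D and not in A and B. Parp14, an interferon-induced ADP-ribosyltransferase, had -0.61 with PPARa siRNA and rose by 1.28 with PPARa-M siRNA (adjusted p = 0.0337), and this gap passed (adjusted p = 0.0462). All 18 cholesterol synthesis genes had a positive difference with a median of 0.19, but 0 passed and the groups overlapped in each; the array medians were 0.50, -0.20, 0.44 and 0.36 against 0.11, -0.11, 0.44 and -0.15. The median of this list was 0.10 without PPARa siRNA replicate A and 0.33 without replicate B, and without replicate D 15 of the 18 were positive. Pmvk, phosphomevalonate kinase, had 0.30 here (0.20 without replicate D) and fell by 0.85 with PPARa-M siRNA (adjusted p = 0.00672), a gap that passed (adjusted p = 0.018), as did that of Fdps, farnesyl diphosphate synthase (0.32 against -1.18, adjusted p = 0.034).

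**Figure D5:**
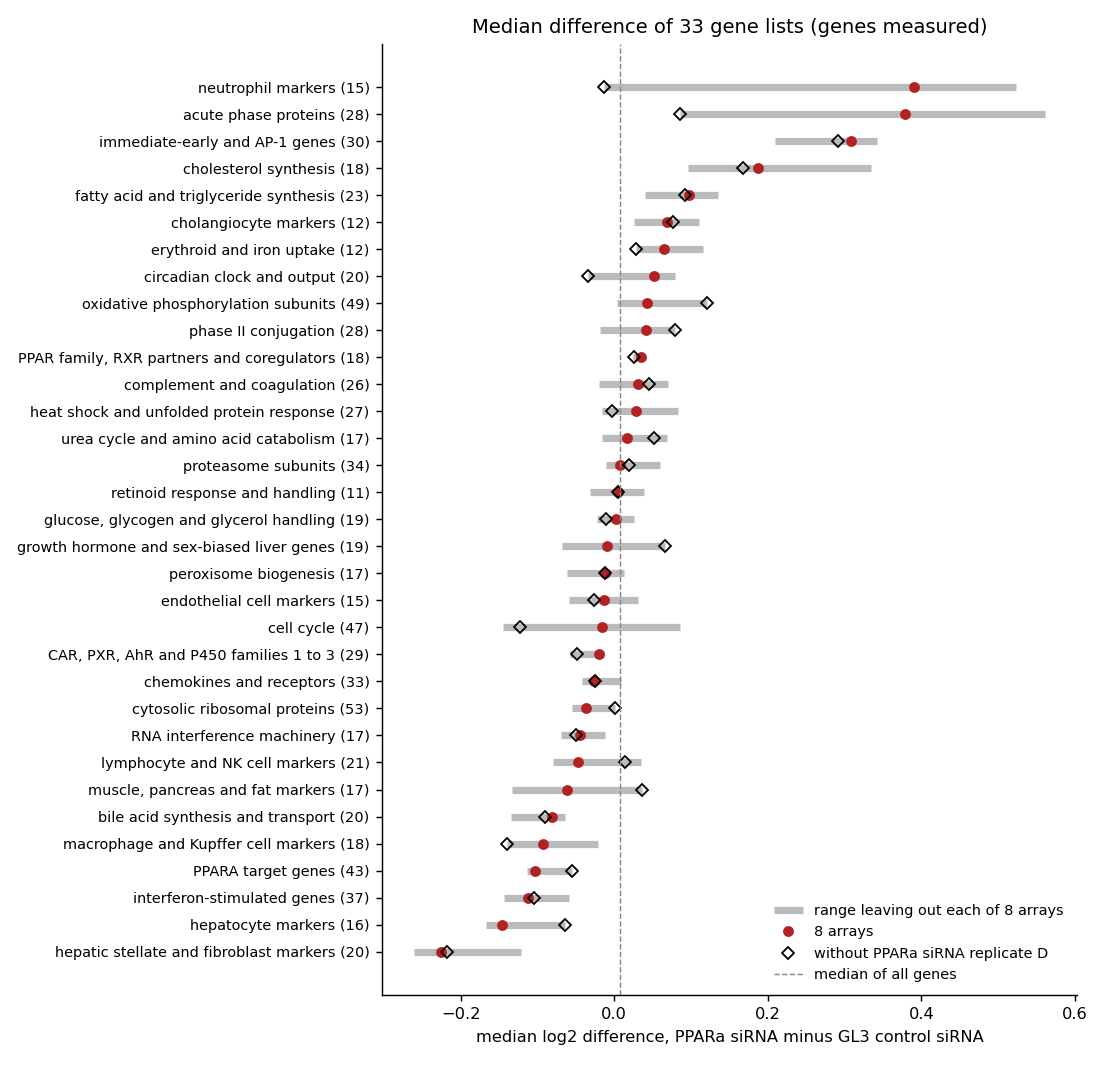
Median log2 difference between PPARa siRNA and GL3 control siRNA of 33 gene lists (filled circles), with the range when each of the 8 arrays was left out (grey bars) and the value without PPARa siRNA replicate D (diamonds); the dashed line is the median of all genes, and the number of genes measured is in brackets. The neutrophil median moved from 0.39 to -0.01 without replicate D, whereas that of immediate-early genes moved from 0.31 to 0.29.

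Markers of the liver's cell types were read as ratios, since no intensity was analysed and a ratio to a liver pool cannot show that a tissue marker is present. Hepatocyte markers had a median difference of -0.15 over 16 genes (-0.06 without replicate D), with array medians from -0.26 to -0.10 with PPARa siRNA and from -0.14 to 0.04 with GL3. The median was -0.23 over 20 stellate cell and fibroblast markers, -0.09 over 18 macrophage and Kupffer cell markers and -0.01 over 15 endothelial markers. None of these genes passed. Cholangiocyte markers had a median of 0.07 over 12 genes, with 9 positive and 3 negative, and 0 passed. Krt7 was at 0.54 (adjusted p = 0.938 in limma) and at 0.34 without replicate D. Sox9 was at 0.34 (0.27 without replicate D), whereas Anxa3 was at -0.28 (-0.36 without replicate D). The part of the cell types in the changes above was not tested.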

How the data were processed

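The authors hybridized liver RNA of each of 20 mice (5 groups of 4) with the vehicle pool and deposited log10 ratios for 23493 probes; their normalization is not given in the sources used here. The log10 values deposited by the authors end at 2 and -2, and 12 values of 10 probes in the 8 arrays compared lie at these limits. Neither intensities nor errors were analysed, so levels, background and depth are unknown. The study reports 4 animals per group, and the labels give each array of a group its own letter. PPARa-M replicates C and D were close in some list means, at 1.313 and 1.3 for interferon-stimulated genes and 0.26 and 0.25 for immediate-early genes. Their hepatocyte marker means were less alike, at 0.02 and 0.13. Whether these 2 arrays come from separate mice was not tested.

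The ratios were converted to log2 without scaling. Probes with 1 symbol in the platform annotation (18790) were averaged per symbol to 15252 genes; 65 probes with several symbols and 4638 with none were left out. limma 3.58.1 in R 4.3.3 was fitted to all 20 arrays with 5 group means, and p-values were Benjamini-Hochberg adjusted over all genes, with a threshold of 0.05. The model was also run on simulated data with independent noise and no outlying array. That run cannot show how the model handles a liver such as PPARa siRNA replicate D. Ppara, Cpt1a and Acadl were compared by exact permutation in Python 3.11.15 with scipy 1.17.1, and matplotlib 3.10.9 drew the figures. Genes named are those 3, those past the threshold, the 15 largest increases and decreases without overlap at an unadjusted p under 0.01, and up to 4 members of each of 33 lists with the smallest p; Vnn1 falls under the last part. Others (all further members named from a list, and the genes of probes tested singly) were chosen after their values were seen. The members and lists were chosen with earlier results of these data known. Promoters are from RefSeq (GRCm38.p6). Alternatives were other scalings, weights, moderation, samples in the fit, probe summaries, limits, filters and thresholds, a replicate block and each array left out.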

Additional observations from a re-analysis of the deposited data

Results flagged for a closer look

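A single sample lay far from the other 3 of its group in 3 of the 70 gene and group combinations tested, and chance alone marks about 1 in 20. Acadl was highest in PPARa siRNA replicate C, at a log2 ratio of -0.0449 against -0.23 to -0.21 in the others. Ier2 was lowest in PPARa siRNA replicate D, at 0.35, and still rose without that array (log2 difference 1.18). Btbd2 was highest in GL3 replicate C, at 2.81.

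Of the 8 genes that rose with PPARa siRNA, 5 also differed between the Ppara siRNAs, each taken relative to its own control, by limma's test of that difference: Egr1 by 2.47 on the log2 scale, Ppp1r3g by 2.30, Btg2 by 1.25, Ier2 by 1.02 and Junb by 0.87. Of these genes, the PPARa-M siRNA difference was largest for Egr1 in the negative direction (-0.27) and for Junb in the positive (0.16).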

How the results depend on the processing

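The 8 rises were 19 probes when probes were tested singly, 3 genes after quantile normalization (Btg2, Junb and Nr4a1), 1 with the 8 arrays alone (Btg2), 2 at a threshold of 0.01 and 2 to 7 leaving out 1 array (2 without PPARa siRNA replicate B, 3 without GL3 replicate C or D). Btg2 passed in all 17 gene alternatives, Junb in 16, Nr4a1 in 14, Egr1 and Ppp1r3g in 10, Ier2 in 9, Fos in 6 of 16 and Dusp1 in 3. The 0 decreases became 10 with array weights, 15 with probes, 3 with the filter at 1.5-fold (fewer genes tested), 10 at a threshold of 0.25, and 0 to 3 leaving out 1 array. Genes without overlap numbered 133 to 245 higher and 172 to 391 lower leaving out 1 array, 204 higher with the 8 arrays alone, 219 and 367 as probes, and 20 and 35 with the filter. The difference between the siRNAs passed for 134 genes, for 0 after quantile normalization, 567 with array weights, 392 as probes, 76 with the filter, 1 at 0.01, 904 at 0.25 and 47 to 131 leaving out 1 array. The cause of these shifts was not tested. Leaving out 1 array, Ppara lay between -0.45 and -0.28, Cpt1a between -0.17 and -0.09, Acadl between -0.20 and -0.13, and the PPARα target median between -0.11 and -0.05. No direction turned for these, and scaling moved the median of all genes by under 0.01.

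The labels do not say that a replicate letter pairs mice across groups. Deviations from the group means correlated at 0.262, 0.107, 0.146 and -0.033 for letters A to D, and between -0.215 and 0.228 for different letters. Apart from PPARa siRNA D with GL3 B (0.228), different letters reached at most 0.061. The letters were not taken as pairs because the labels do not state a pairing, and an effect shared by a letter was not tested. With the replicate block 6 genes rose, without Dusp1 and Fos (adjusted p = 0.0731 for each), 4 others fell (2810436B12Rik, Ctso, Larp1b and Rbmxl2), the siRNAs differed for 133 genes, and the paired exact permutation p of Ppara, Cpt1a and Acadl was 0.25 for each (smallest possible 0.125). Without intensities, the limit that signal over background sets is unknown.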

Other observations

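Of 17 genes of the urea cycle and amino acid catabolism 0 passed. In 2 of them (11.8%, against 0.885% of all genes) all PPARa siRNA livers lay above all GL3 livers with an unadjusted p under 0.05. They were Prodh and Asl (0.26). Of 49 oxidative phosphorylation subunits 32 had a positive difference with a median of 0.04, and 42 with a median of 0.12 without PPARa siRNA replicate D, and 0 passed. Prodh, the first enzyme of proline breakdown, had log2 ratios of -0.11, -0.07, -0.05 and -0.02 with PPARa siRNA and of -0.28, -0.50, -0.26 and -0.47 with GL3, a difference of 0.32 (adjusted p = 0.393 in limma). The PPARa siRNA livers were near the pool and the GL3 livers below it. Gstt3, a glutathione transferase, was also lower with GL3 (-0.50, -0.72, -0.50 and -0.59) than with PPARa siRNA (-0.31, -0.28, -0.20 and -0.03), with a difference of 0.37 (adjusted p = 0.323). Gstt3 rose by 0.49 with PPARa-M siRNA relative to SEAP-M (adjusted p = 0.00724).

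Pdia6, a disulfide isomerase of the endoplasmic reticulum, had a difference of -0.44 (adjusted p = 0.392), while the 27 genes of the heat shock and unfolded protein response had a median of 0.03. Tnrc6b, a scaffold of the silencing complex, had -0.30 with PPARa siRNA (-0.20 without replicate D) and 0.67 with PPARa-M siRNA, and this gap passed (adjusted p = 0.0274). The median of the 17 genes of the silencing machinery was -0.04.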
